A study of Mus musculus with 7 samples.

Results

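Egr1, Egr2, Egr3, Ier2, Ier3, Ier5, Btg1 and Btg2 are immediate early genes: 3 Egr transcription factors, 3 Ier genes and 2 Btg antiproliferative genes. They were taken by symbol from a table of RNA counts, and all 8 were found among its 23329 gene symbols. The libraries came from Beta-TC6, a mouse beta-cell line. All 7 were labelled wild type; 3 received IL1B, the cytokine interleukin-1 beta, which is released in inflamed islets, and 4 received vehicle. By the labels' protocols, which make no distinction between the groups here, cells grew in DMEM with 15% serum and were given 10 µM forskolin, which raises cAMP, for 1 h to synchronise them. The sources used here give neither the IL1B dose and exposure nor the time between pulse and harvest. The line is known to derive from an insulinoma of a transgenic mouse in which the insulin promoter drives a viral large T antigen, a protein that binds p53.

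Immediate early genes are transcribed soon after a signal reaches the cell, from regulators that are already present, and most of their transcripts are short-lived. Growth factor signals reach them through the ERK kinases, the serum response factor SRF and its ETS partners, cAMP through CREB, and inflammatory cytokines through NF-kB and the stress kinases. In beta cells, glucose and cAMP are known to induce Egr1. Egr proteins are zinc-finger factors, held in check by the Nab corepressors. Ier3 (also IEX-1) is a short protein that affects cell survival, Ier2 a nuclear protein, and Ier5 a related protein that binds the phosphatase PP2A and the heat shock factor HSF1. Btg1 and Btg2 restrain proliferation and bind the CCR4-NOT complex, which shortens the poly(A) tails of mRNAs.

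The DNA just before the start of 4 of the genes that rose is shown so that the motifs of these routes can be set beside the values. Each run is a RefSeq window on GRCm38.p6, the assembly of mm10, holding 250 bases before the annotated start and 50 from it onward, 5′ to 3′ on the gene's strand. Capitals mark every match, on either strand, to a kB site, a CArG box (the SRF site), the cAMP response element TGACGTCA, its shorter core TGACG, the AP-1 site TGANTCA, the Egr site GCGTGGGCG or the ETS core CCGGAAG.
Ier3, chr17:35821463-35821762, plus strand: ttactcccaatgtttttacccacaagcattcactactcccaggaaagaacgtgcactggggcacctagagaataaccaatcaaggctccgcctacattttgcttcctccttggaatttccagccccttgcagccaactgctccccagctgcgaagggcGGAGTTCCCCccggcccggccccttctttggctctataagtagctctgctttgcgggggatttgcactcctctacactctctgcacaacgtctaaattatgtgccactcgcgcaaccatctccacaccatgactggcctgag
Ier5, chr1:155099587-155099886, minus strand: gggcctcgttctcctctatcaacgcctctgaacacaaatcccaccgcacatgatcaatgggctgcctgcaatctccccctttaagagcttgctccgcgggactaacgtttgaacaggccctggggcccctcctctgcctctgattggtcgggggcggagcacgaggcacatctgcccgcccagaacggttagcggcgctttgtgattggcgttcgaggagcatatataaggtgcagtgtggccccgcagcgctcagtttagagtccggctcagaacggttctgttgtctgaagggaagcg
Btg1, chr10:96616751-96617050, plus strand: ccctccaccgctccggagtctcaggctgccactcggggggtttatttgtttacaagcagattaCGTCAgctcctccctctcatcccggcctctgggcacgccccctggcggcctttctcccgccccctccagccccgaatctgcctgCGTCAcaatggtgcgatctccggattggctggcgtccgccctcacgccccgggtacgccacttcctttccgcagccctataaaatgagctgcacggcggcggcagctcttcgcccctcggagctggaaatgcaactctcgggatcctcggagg
Btg2, chr1:134079106-134079405, minus strand: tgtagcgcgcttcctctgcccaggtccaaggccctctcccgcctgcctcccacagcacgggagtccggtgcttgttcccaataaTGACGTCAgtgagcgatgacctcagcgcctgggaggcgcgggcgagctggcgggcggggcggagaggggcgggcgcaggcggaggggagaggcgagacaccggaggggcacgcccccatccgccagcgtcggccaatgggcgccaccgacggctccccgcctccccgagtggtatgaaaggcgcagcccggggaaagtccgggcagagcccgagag
The Ier3 window held 1 kB match, at positions -92 to -83 from the start, a motif found in 8.46% of all 32851 promoter windows of this length. The Btg2 window held a cAMP response element at -166 to -159, found in 1.79% of windows, which contains 2 overlapping cores. The Btg1 window held 2 separate cores, a motif found in 20.8% of windows, and the Ier5 window held none of the 7 motifs. Of the 5 RefSeq windows listed for Egr2, 4 held a CArG box (1.63% of all windows), and 3 of those 4 overlap and share 1 match. The same 3 windows share 2 matches to the TGACG core, and the fifth Egr2 window held 2 overlapping kB matches, at -117 to -108 and -116 to -107. Matches describe the letters only, and binding was not measured here.

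IL1B libraries held 6007723 to 6969745 counts and vehicle libraries 5335607 to 7513934. The treatment mark Nfkbia, the IkBa gene, stood at 460 to 496 CPM with IL1B and 29.5 to 33.0 CPM with vehicle. CPM here is a gene's counts per 1e6 counts summed over the tested genes, with TMM-scaled library sizes. The cells carried beta-cell transcripts, with Ins2 at 21680 to 23108 CPM with IL1B and 19673 to 23434 CPM with vehicle. Of 10 beta-cell markers 2 fell by edgeR (20%, against 3.25% of all genes tested) and none rose (against 7.76%), and DESeq2 and limma-voom also gave 2 and none. At an unadjusted edgeR p under 0.05, 4 were lower and 3 higher. The share of all genes at an unadjusted p is not given here, so such counts have no background, in this list or those below. Pdx1 fell to 239 ± 7.96 CPM with IL1B, against 354 ± 6.40 CPM with vehicle (SD, n = 3 and 4; edgeR adjusted p = 3.0e-07), and Mafa to 150.5 to 152.5 CPM with IL1B, against 202 to 220.5 CPM with vehicle (edgeR adjusted p = 7.0e-06). Without the second libraries, 4 fell and 4 rose, in a fit that also called more genes lower over all genes, as given in the last section. Among 7 markers of other islet cells, of which 3 were tested, Irx2 fell to 5.16 ± 0.710 CPM with IL1B, against 9.19 ± 0.801 CPM with vehicle (edgeR adjusted p = 0.0023). The glucagon gene Gcg, at 267 ± 39.7 CPM with IL1B and 311 ± 14.7 CPM with vehicle, did not pass (edgeR adjusted p = 0.0887). Nor did the somatostatin gene Sst, at 293 ± 12.3 CPM with IL1B and 288 ± 20.8 CPM with vehicle (edgeR adjusted p = 0.875). The pancreatic polypeptide gene Ppy, below the filter, stood at 0 to 0.337 CPM with IL1B and 0.371 to 1.76 CPM with vehicle (4 and 33 counts). With a minimum of 1 CPM in 3 libraries 2 of 4 tested genes of this list were lower, and with no filter on low counts 3 of 7. The endothelial marker Pecam1, below the filter, stood at 1.52 to 2.83 CPM with IL1B and 0.529 to 0.790 CPM with vehicle (41 and 17 counts). Cdh5, also endothelial and below the filter, averaged 1.09 ± 0.472 CPM with IL1B and 1.21 ± 0.615 CPM with vehicle. All 7 stromal and endothelial markers summed to 5.68 to 7.65 CPM with IL1B and 5.01 to 8.46 CPM with vehicle, which overlap. The part of the marker shifts in the results for the 8 genes was not tested. The 8 leukocyte markers summed to 3.71 to 5.10 CPM with IL1B and 3.34 to 4.85 CPM with vehicle. The 8 exocrine and duct markers summed to 20.1 to 22.6 CPM with IL1B and 19.3 to 24.1 CPM with vehicle. Most of that sum was the duct gene Spp1, which averaged 14.9 CPM with IL1B and 15.8 CPM with vehicle. Among acinar genes Cpa1, Prss2 and Ptf1a had no count in any library, while Cela1 had 8 counts with IL1B and 10 with vehicle. The second library of each group stood apart from its group by chi-square between libraries, and the second vehicle library also by a trend with exon length. In vehicle its deviation from the group mean correlated with exon length at a Spearman rho of -0.50 over 11266 genes, against 0.19 to 0.27 in the remaining vehicle libraries. The second IL1B library showed no such trend (rho -0.0045, against 0.0015 and -0.0087 in IL1B libraries 1 and 3). Compared with IL1B libraries 1 and 3, the second IL1B library gave a chi-square per degree of freedom of 4.04 and 2.79, and libraries 1 and 3 gave 1.71 between themselves. Compared with vehicle libraries 1, 3 and 4, the second vehicle library gave 4.68, 3.74 and 3.70, and those libraries gave 1.51 to 1.58 among themselves. Calls that change without both second libraries are given beside the genes and lists concerned.

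Of the 8 genes, 6 rose with IL1B: Ier3 10.8-fold, Egr1 2.19-fold, Ier2 1.92-fold, Btg2 1.76-fold, Btg1 1.60-fold and Ier5 1.34-fold. Egr2 did not pass the threshold and Egr3 was too low to test. Over all 12480 genes tested by edgeR's quasi-likelihood test, 11.0% passed the threshold used, a Benjamini-Hochberg adjusted p of 0.05, 7.76% higher and 3.25% lower. At least 2-fold increases, found for 2 of the 8, were called for 1.97% of genes. DESeq2 called 5 of the 8 and limma-voom 6. For the 6 genes that rose every IL1B library lay above every vehicle library, as it did for 12.1% of tested genes (21.0% were without overlap in either direction). Egr2 showed the same order but passed the filter on low counts through its IL1B libraries, so it is not counted here. In bulk RNA, a change in the number of cells that express a gene and a change in its RNA per cell cannot be told apart. The labels do not say whether libraries of a group came from separate cultures, so the p-values measure the spread between these libraries, which may be technical.

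**Figure D1:**
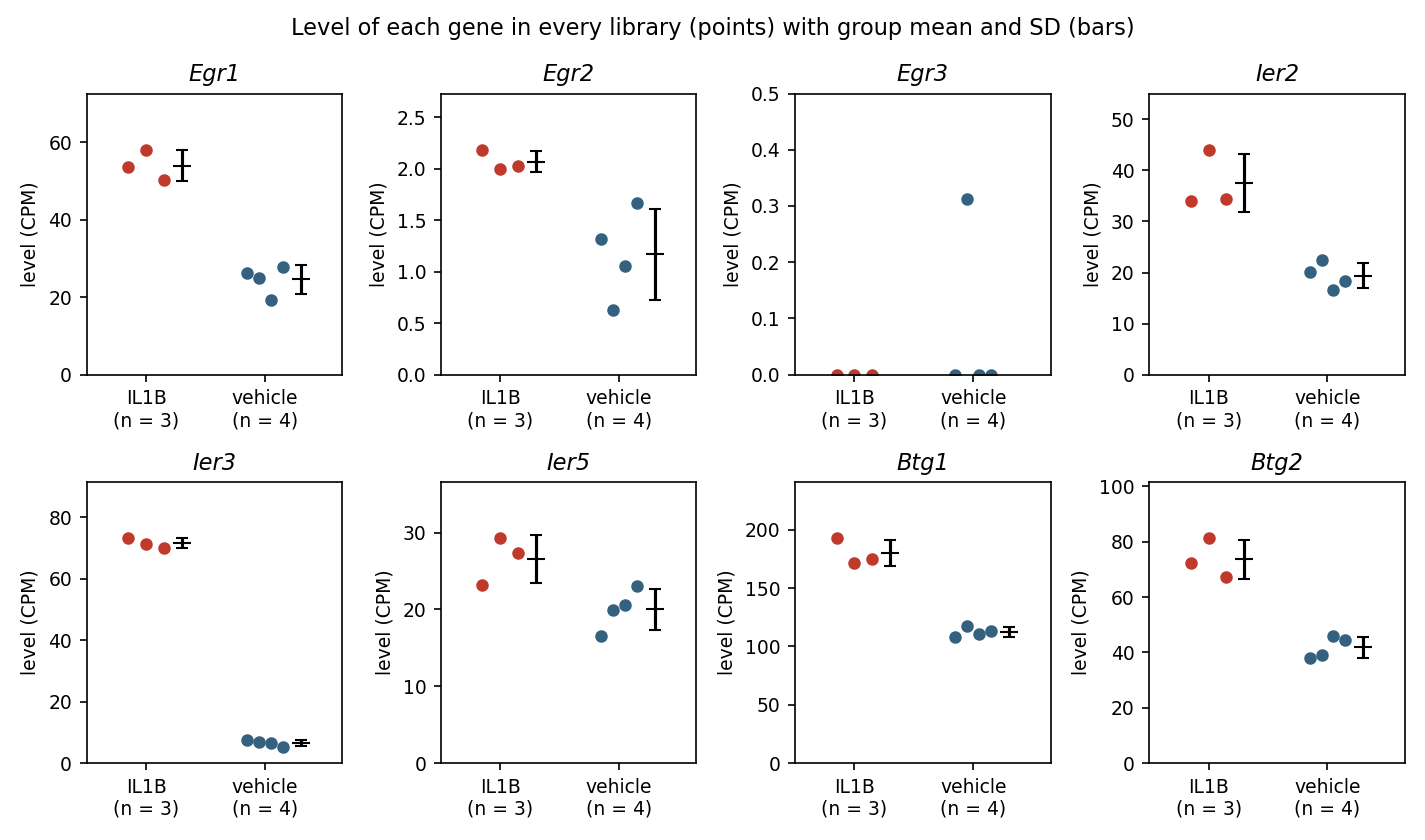
Level of each gene in CPM in every library, IL1B (3 libraries) left of vehicle (4 libraries); bars give the mean and SD, and are left out for Egr3, which had counts in 1 library. The Ier3 groups are the farthest apart, at 70.0 to 73.1 CPM with IL1B and 5.20 to 7.64 CPM with vehicle, while for Ier5 the lowest IL1B library (23.2 CPM) lies next to the highest vehicle library (23.0 CPM).

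Among the Ier genes, Ier3 (ENSMUSG00000003541; chromosome 17, 35821684 to 35822923, plus strand, GRCm38) had 73.1, 71.3 and 70.0 CPM in IL1B libraries 1 to 3, against 7.64, 6.73, 6.52 and 5.20 CPM in vehicle libraries 1 to 4. The groups were far apart: the lowest IL1B library was 9.17 times the highest vehicle library. Raw counts were 415 to 502 with IL1B and 28 to 58 with vehicle. The fitted change was 10.8-fold (edgeR adjusted p = 4.1e-15; log2 fold change 3.43, SE 0.10), the 34th largest increase of the 12480 genes.

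Ier2 (ENSMUSG00000053560; chromosome 8, 84661331 to 84662852, minus strand) is a gene of a single annotated exon. It had 33.9, 44.1 and 34.4 CPM in IL1B libraries, against 20.1, 22.4, 16.6 and 18.4 CPM in vehicle libraries. The groups did not overlap, and the second library was the highest of each group. Ier2 was 1.92-fold higher (edgeR adjusted p = 7.0e-06; log2 fold change 0.94, SE 0.12), and without the second libraries the log2 value was 0.88 (SE 0.11; edgeR adjusted p = 1.8e-07).

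Ier5 (ENSMUSG00000056708; chromosome 1, 155096361 to 155099636, minus strand), likewise of a single exon, moved least. It had 23.2, 29.3 and 27.3 CPM in IL1B libraries, against 16.6, 19.9, 20.6 and 23.0 CPM in vehicle libraries. The groups touched without overlapping, the lowest IL1B library being 1.01 times the highest vehicle library. The 1.34-fold increase (edgeR adjusted p = 0.025; log2 fold change 0.42, SE 0.12) depended on single libraries. The adjusted p was 0.11 without vehicle library 1, 0.141 without IL1B library 2, 0.0983 without IL1B library 3 and 0.065 without the second libraries, and DESeq2 gave 0.0523.

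Ratios taken inside each library, which do not depend on the scaling between libraries, set the Ier genes against each other. The Ier3 to Ier2 ratio of counts was 2.15, 1.62 and 2.03 in IL1B libraries, against 0.381, 0.303, 0.397 and 0.286 in vehicle libraries. It was thus 5.67 times higher with IL1B (log2 difference 2.50), with no overlap between groups. The Ier3 to Ier5 ratio was 3.15, 2.43 and 2.56 in IL1B libraries, against 0.462, 0.341, 0.319 and 0.229 in vehicle libraries, 8.23 times higher (log2 difference 3.04). Both reached the smallest p that 35 splits of 7 libraries allow (two-sided exact permutation p = 0.0286), but neither passed once adjusted over the 4 pairs tested (0.0571). Ier2 gained on Ier5 by 0.54 on the log2 scale, again without overlap (exact permutation p = 0.0571, adjusted 0.0762). The 3 Egr pairs were not tested, because Egr2 and Egr3 had libraries with fewer than 10 counts.

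**Figure D2:**
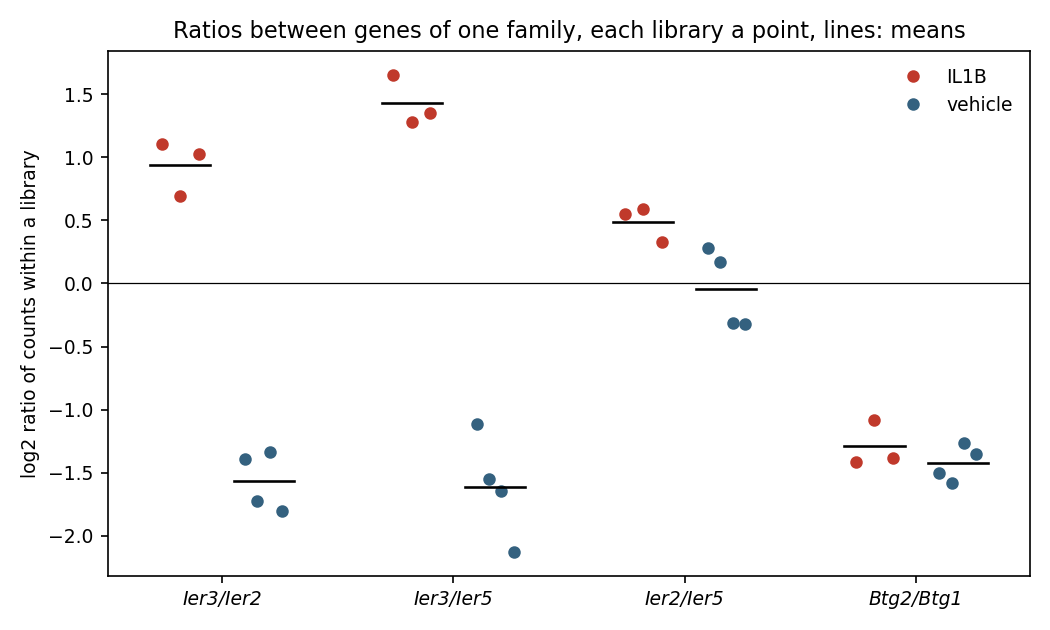
Log2 ratio of the counts of a pair of genes within each library (points) with the group mean (lines), IL1B (red, 3 libraries) left of vehicle (blue, 4 libraries). Ier3/Ier2 and Ier3/Ier5 lie above 0 in every IL1B library and below 0 in every vehicle library, whereas the Btg2/Btg1 groups overlap.

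Of the Egr factors, Egr1 (ENSMUSG00000038418; chromosome 18, 34859823 to 34864984, plus strand) had 53.5, 58.0 and 50.1 CPM in IL1B libraries, against 26.3, 24.9, 19.2 and 27.9 CPM in vehicle libraries. The groups did not overlap, and the lowest IL1B library was 1.80 times the highest vehicle library. Egr1 rose 2.19-fold (edgeR adjusted p = 1.3e-07; log2 fold change 1.13, SE 0.10), with a log2 fold change of 1.08 without the second libraries. The gene was already well counted in vehicle, with 109 to 200 counts per library.

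Egr2 (ENSMUSG00000037868; chromosome 10, 67535475 to 67542188, plus strand), the Krox20 gene, had 15, 12 and 12 counts in IL1B libraries, against 10, 4, 6 and 9 counts in vehicle libraries. In CPM these were 2.19, 1.99 and 2.02 with IL1B, against 1.32, 0.626, 1.06 and 1.67 with vehicle. The groups did not overlap, but the fitted change of 1.78-fold (log2 fold change 0.83, SE 0.36; unadjusted p = 0.034) did not pass (edgeR adjusted p = 0.175). Its adjusted p ran from 0.131 to 0.408 over 15 alternative settings. The filter on low counts kept Egr2 through its IL1B libraries, since only 1 of 4 vehicle libraries reached the level the filter asks for. The 95% interval of the fold, 1.09 to 2.90, includes the 2.19-fold of Egr1, and the difference between both genes' changes was not tested.

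Egr3 (ENSMUSG00000033730; chromosome 14, 70077203 to 70082614, plus strand) had no count in the IL1B libraries and 2 counts in all in vehicle, both in the second library. A count of 0 over the 3 IL1B libraries allows up to 0.160 CPM (3 counts, counting error only), and vehicle stood at 0.0799 CPM over the group. A change was not detectable at this depth.

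Both Btg genes rose. Btg1 (ENSMUSG00000036478; chromosome 10, 96617006 to 96622809, plus strand) was the most counted of the 8 genes and had 193, 172 and 175 CPM in IL1B libraries, against 108, 117, 110 and 114 CPM in vehicle libraries. All IL1B libraries lay well above all vehicle libraries. It rose 1.60-fold (edgeR adjusted p = 1.4e-07; log2 fold change 0.68, SE 0.06). Btg2 (ENSMUSG00000020423; chromosome 1, 134075170 to 134079120, minus strand), also known as a p53 target, had 72.4, 81.3 and 67.1 CPM in IL1B libraries, against 38.2, 39.1, 45.8 and 44.6 CPM in vehicle libraries. Its groups were also clear of each other. It rose 1.76-fold (edgeR adjusted p = 1.1e-06; log2 fold change 0.82, SE 0.09). The Btg2 to Btg1 ratio was 0.376, 0.473 and 0.383 in IL1B libraries, against 0.353, 0.334, 0.416 and 0.393 in vehicle libraries. The groups overlapped and the log2 difference was 0.13 (exact permutation p = 0.371), which became -0.02 without the second libraries.

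**Figure D3:**
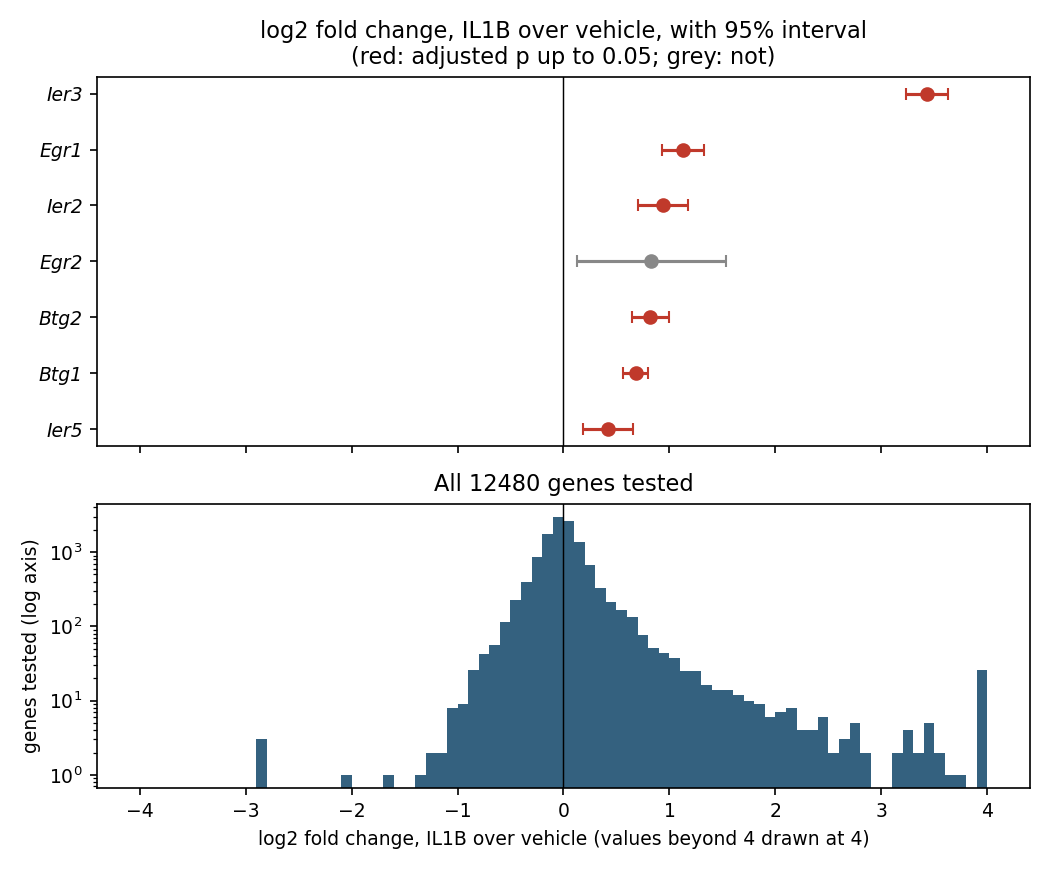
Top, log2 fold change of IL1B over vehicle for the 7 tested genes with its 95% interval, red where the edgeR adjusted p was at most 0.05; bottom, the same quantity for all 12480 genes tested, on a log count axis. Ier3 (3.43) lies in the far right tail of all genes, and the other 6, from 0.42 to 1.13, on its shoulder.

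Per kb of annotated exon, so that genes of different length can be compared, the order of levels differed between the groups. With IL1B, Ier3 was first at 63.2 ± 1.39 CPM per kb (SD, n = 3), followed by Btg1 at 34.1 ± 2.12, Btg2 at 26.8 ± 2.61, Ier2 at 24.6 ± 3.75, Egr1 at 12.01 ± 0.886, Ier5 at 8.11 ± 0.950 and Egr2 at 0.609 ± 0.0302. Btg2 and Ier2 overlapped between libraries (24.5 to 29.6 and 22.3 to 28.9 CPM per kb), and the other neighbours did not. With vehicle, Btg1 was first at 21.3 ± 0.755 CPM per kb (SD, n = 4), followed by Btg2 at 15.3 ± 1.40 and Ier2 at 12.7 ± 1.63, whose libraries overlapped. Ier5 at 6.11 ± 0.811, Ier3 at 5.77 ± 0.889 and Egr1 at 5.48 ± 0.841 CPM per kb could not be told apart by their spread, and Egr2 followed at 0.344 ± 0.129. Ier3 thus stood with the low group in vehicle and above the other 7 genes with IL1B. The lengths are unions of all annotated exons and overstate the transcript where the cells use a shorter isoform.

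**Figure D4:**
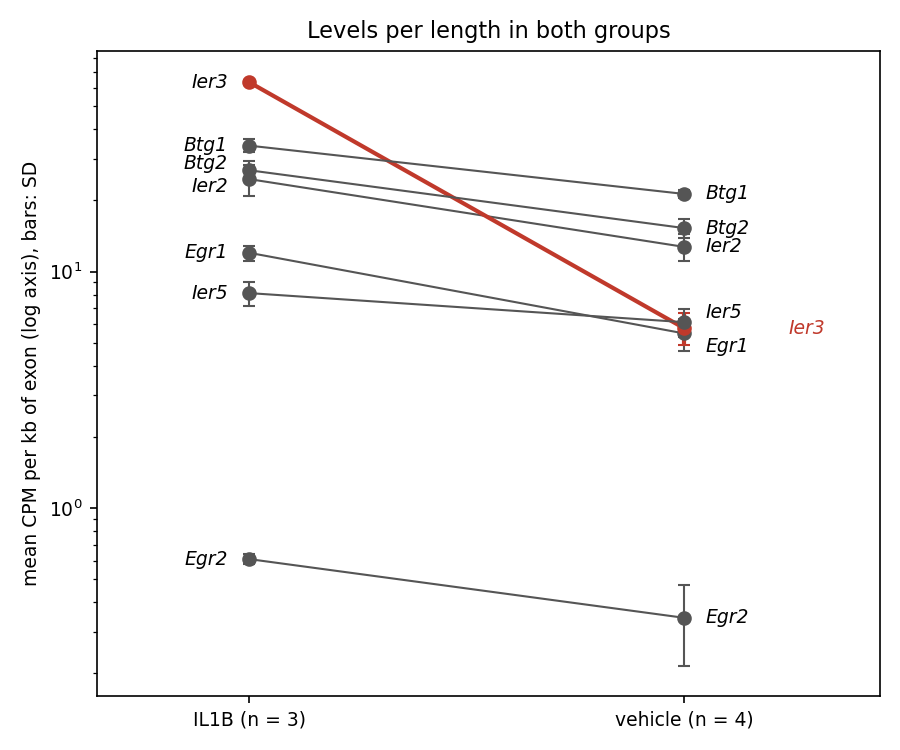
Mean level per kb of exon on a log axis in IL1B (left, n = 3) and vehicle (right, n = 4), with SD bars, for the 7 genes with counts in both groups. Ier3 (red) stands at 63.2 CPM per kb with IL1B and 5.77 with vehicle, crossing the lines of Btg1, Btg2 and Ier2.

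For each gene that rose, the 3 genes with the nearest pattern over the 7 libraries were taken from 10896 genes of at least 5 CPM, by Euclidean distance between log2 CPM profiles centred on the vehicle mean. Nearest to Ier3 were Ripk2 (distance 0.420), Relb (0.471) and Nfkb2 (0.495), a kinase of innate immune signalling and 2 NF-kB subunits, with fold changes of 11.96, 10.8 and 11.2. Nearest to Ier2 was Rhob (0.216), itself a known immediate early gene, followed by Prosapip1 (0.294) and Trib3 (0.347). Egr1 lay nearest Fam117a (0.184), Zfp607 (0.322) and Arrb1 (0.325), and Ier5 nearest Jdp2 (0.123), which encodes an AP-1 partner, A230051G13Rik (0.193) and 4930414L22Rik (0.198). Btg1 lay nearest Hmox1 (0.104), the heme oxygenase gene, Degs1 (0.112) and Msx1 (0.125). Btg2 lay nearest Apbb3 (0.146), Ccrn4l (0.182), a clock-controlled gene, and Stk40 (0.213). The distance includes the difference between groups, so genes of a like fold change lie near by construction.

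The Nab corepressors, which bind Egr proteins and limit them, rose with Egr1. Nab1 had 106, 102 and 98.9 CPM in IL1B libraries, against 47.5, 46.5, 46.7 and 53.8 CPM in vehicle libraries, a 2.11-fold increase (edgeR adjusted p = 1.4e-09; log2 fold change 1.08, SE 0.07). Nab2, itself a known Egr1 target, had 101, 113 and 94.5 CPM in IL1B libraries, against 63.5, 71.6, 60.3 and 74.6 CPM in vehicle libraries, a 1.52-fold increase (edgeR adjusted p = 2.4e-05). The groups of both genes were apart. Nab2 shares 33.7% of its longest transcript at 95% identity or more with the annotated gene Gm16229, so its counts are uncertain to that extent. Egr4, the remaining Egr family gene, averaged 1.41 ± 0.487 CPM with IL1B and 1.44 ± 0.475 CPM with vehicle (SD, n = 3 and 4; edgeR adjusted p = 0.988), and Wt1 was below the filter. Of 9 tested genes reported as Egr1 targets, 4 rose (44.4%, against 7.76% of all genes) and none fell (against 3.25%). At an unadjusted edgeR p under 0.05, 5 rose and none fell, a looser threshold to which the shares of 7.76% and 3.25% do not apply. DESeq2 and limma-voom also gave 4 and none. The 4 were Nab2, Trp53 (2.10-fold), Tgfb1 (11.6 ± 1.37 CPM with IL1B and 6.44 ± 1.20 CPM with vehicle) and Cdkn1a (1.46-fold). Over the 9 genes the median log2 change was 0.30, against -0.0087 over all genes tested, and F3, Pdgfa, Fn1 and Vegfa were among those that did not pass.

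None of the 3 tested relatives of Btg1 and Btg2 passed upward in the fit of all libraries. Tob1, which also recruits CCR4-NOT, fell to 36.0, 39.6 and 38.8 CPM in IL1B libraries, against 46.1, 42.3, 48.5 and 45.7 CPM in vehicle libraries (1.20-fold lower, edgeR adjusted p = 0.0481). That call was lost with DESeq2 (adjusted p = 0.128) and without vehicle library 1, 3 or 4 or any of the IL1B libraries (0.0564 to 0.158), and held without both second libraries (0.0088). Tob2 averaged 28.4 ± 3.78 CPM with IL1B and 28.9 ± 1.32 CPM with vehicle (SD, n = 3 and 4; edgeR adjusted p = 0.912). Btg3 had 55.7, 134 and 64.3 CPM in IL1B libraries, against 84.6, 95.05, 75.1 and 91.7 CPM in vehicle libraries. Its second IL1B library lay above all vehicle libraries and the other IL1B libraries below them. Over all libraries its log2 change was -0.04 (SE 0.19, edgeR adjusted p = 0.94), and with both second libraries left out it was -0.49 (SE 0.08, edgeR adjusted p = 3.3e-05). Of the 11 CCR4-NOT genes none passed by edgeR, DESeq2 or limma-voom. At an unadjusted edgeR p under 0.05, for which no share of all genes is given here, 3 were lower and none higher. Cnot6l, a deadenylase subunit, was nearest the threshold at 86.0 ± 6.39 CPM with IL1B and 102 ± 12.5 CPM with vehicle (SD, n = 3 and 4; edgeR adjusted p = 0.083), and passed downward without vehicle library 2 (0.0021), without both second libraries (0.0021), with upper-quartile scaling (0.046) and with no filter on low counts (0.0106). Without both second libraries Cnot2 also passed, upward (log2 0.21, edgeR adjusted p = 0.0394, against 0.15 and 0.245 over all libraries). The 12 genes of p53 and its targets form a list that shares Trp53 and Cdkn1a with the reported Egr1 targets above. Of them 6 rose (50%, against 7.76% of all genes) and 1 fell (8.33%, against 3.25%). Their median log2 fold change was 0.26. Besides Trp53 and Cdkn1a, Bbc3, which promotes cell death, rose 2.12-fold, and Gadd45a fell to 77.7 ± 5.73 CPM with IL1B, against 114 ± 4.31 CPM with vehicle (edgeR adjusted p = 7.4e-06). Trp53 shares 20.2% of its longest transcript with the pseudogene Trp53-ps.

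Genes that act upstream of the 8 or bind their proteins are given next. The median log2 fold change of 20 tested genes of the ERK and SRF route was 0.01. Of these genes 2 rose (10%, against 7.76% of all genes) and none fell (against 3.25%). Among them was Mkl2, a coactivator of SRF, at 55.8 ± 1.39 CPM with IL1B and 42.2 ± 4.72 CPM with vehicle (SD, n = 3 and 4; 1.33-fold, edgeR adjusted p = 0.0034). At an unadjusted edgeR p under 0.05, for which no share of all genes is given here, 3 genes of this list were higher and 1 lower. None was lower by DESeq2 or limma-voom. With upper-quartile or total-count scaling edgeR called 1 gene of this list lower. Srf itself averaged 45.9 ± 2.96 CPM with IL1B and 40.5 ± 3.59 CPM with vehicle (edgeR adjusted p = 0.218). Among the proteins Ier5 is known to bind, 2 of 13 PP2A subunit genes rose, a share (15.4%) resting on few genes beside the 7.76% of all genes. They were Ppp2r5b (1.22-fold, edgeR adjusted p = 0.0205) and Ppp2cb (1.14-fold, edgeR adjusted p = 0.0419). Without vehicle library 1 or 3 or IL1B library 3 neither passed, and DESeq2, upper-quartile scaling, total-count scaling and no filter on low counts each left 1. Without both second libraries 3 rose, Ppp2r2d (edgeR adjusted p = 0.0011) being the third. None of the 12 genes of HSF1 and its chaperone targets passed by edgeR, DESeq2 or limma-voom. At an unadjusted edgeR p under 0.05, for which no share of all genes is given here, 2 were higher and none lower. Among these was Hspa1b (1.28-fold, edgeR adjusted p = 0.0955), which is nearly identical to Hspa1a. Without both second libraries 1 of them passed, Hsp90aa1 (log2 0.11, edgeR adjusted p = 0.0284, against 0.07 and 0.44 over all libraries). Cnot2, Ppp2r2d and Hsp90aa1 are named after their values were seen.

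Of the other immediate early genes, 20 of 43 tested rose (46.5%, against 7.76% of all genes) and 3 fell (6.98%, against 3.25%). Their median log2 fold change was 0.39. The smallest adjusted p-values belonged to the AP-1 and small Maf genes Maff (6.82-fold), Junb (6.36-fold), Jun (3.21-fold) and Jund (2.80-fold, sharing 52.8% of its transcript with Gm11175). Nr4a2 (1.84-fold), Sgk1 (1.70-fold) and Tiparp (1.52-fold) fell; they are named after their values were seen. A further 6 were too low to test. Without the second libraries 6 of the 43 fell.

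**Figure D5:**
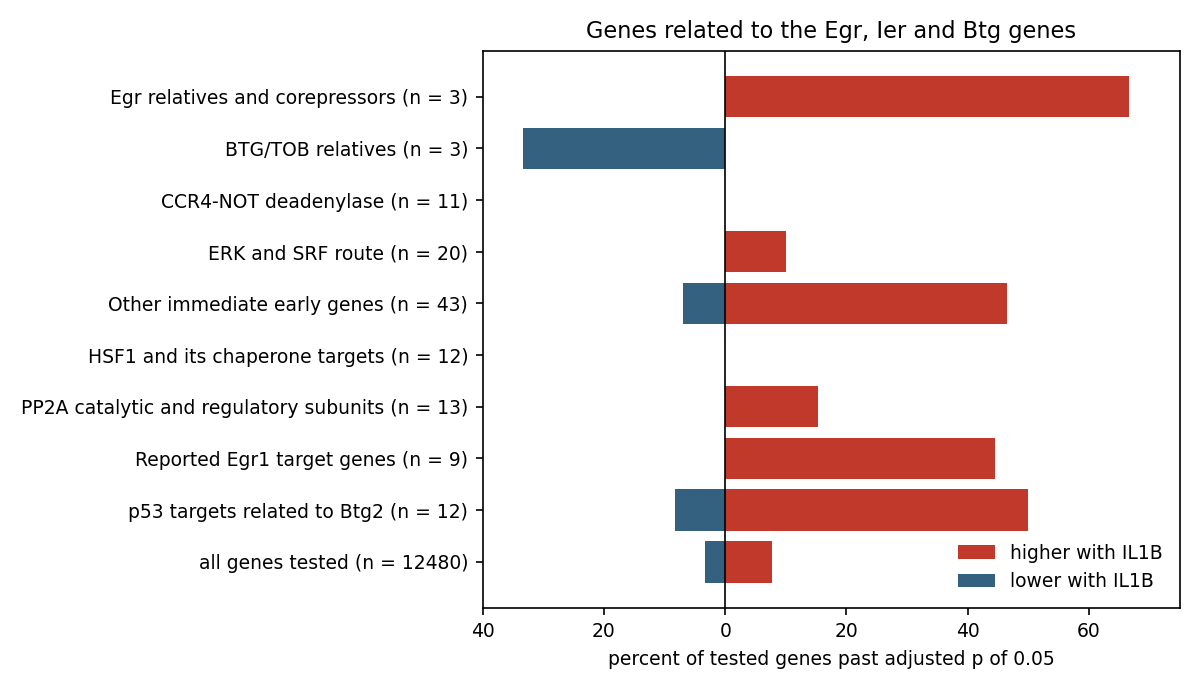
Percent of tested genes past an edgeR adjusted p of 0.05 in each list of related genes, higher with IL1B to the right (red) and lower to the left (blue), with all 12480 genes in the bottom row. Other immediate early genes (46.5% higher) stand above all genes (7.76%), while no CCR4-NOT or HSF1 gene is called in this fit of all libraries; lists of 3 genes carry little weight.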

How the data were processed

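RNA of 7 Beta-TC6 samples was measured, 3 with IL1B and 4 with vehicle. The authors deposited whole-number raw counts per gene symbol. Per the submitters' processing notes, the study used mm10 and, without roles, Seurat, STAR, Bowtie2, Signac, RSEM, R 4.1.0, Cell Ranger, HOMER and DESeq2. The counting tool, its strand setting and its treatment of reads that match several genes: not given in the sources used here.

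Vehicle columns match sample titles. The table numbers its IL1B columns 1, 2 and 3 and the titles number those samples 1, 3 and 4, so IL1B columns were assigned to the group only and keep the table's numbers. No 2 libraries of a group agreed within sampling noise (chi-square per degree of freedom 1.51 to 4.68 over pairs), and each counts as a replicate.

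Counts were analysed with edgeR 4.0.16 in R 4.3.3: TMM scaling, filterByExpr (minimum count 10), which kept 12480 genes, and the quasi-likelihood F test over all 7 libraries without covariates, with Benjamini-Hochberg adjustment over all genes tested. A standard error is the size of the log2 change divided by the root of its F statistic. Within-library ratios used a prior count of 0.5 and an exact permutation test over 35 splits. Alternatives used DESeq2 1.42.0, limma-voom 3.58.1, other scalings and filters, and left-out libraries. The code was tested on simulated data. Coordinates and exon lengths are GENCODE's on GRCm38, promoter windows RefSeq's; shared transcript was found with blastn 2.17.0 at 95% identity or more. None of the 8 genes overlaps another annotated gene, and Btg1 shares 6.24% of its longest transcript with Gm14519. The table held 171 of the 172 symbols on the lists, a few by an earlier name (Mkl2 for Mrtfb).

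The 8 genes and all lists were chosen with earlier results of these data known. Named genes are the 8, up to 4 per list with the smallest adjusted p, the 3 nearest patterns per gene that rose, Nfkbia, Ins1 and Ins2; some genes the rule names are not reported here. Total counts per library were 5335607 to 7513934; 3 counts equal 0.399 to 0.562 per 1e6 of a library's total.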

Additional observations from a re-analysis of the deposited data

Results flagged for a closer look

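Dixon's test was run on 20 sets of 4 vehicle values, of which about 1 in 20 would pass by chance, and 3 passed. Egr3 stood at 0.313 CPM (2 counts) in vehicle library 2 and at 0 in vehicle libraries 1, 3 and 4. A gene counted in only 1 vehicle library passes whatever its value, so the 1 in 20 does not apply to it. Nab1 stood at 53.8 CPM in vehicle library 4 and at 46.5 to 47.5 CPM in vehicle libraries 1 to 3. The rank correlation between exon length and a gene's deviation from the vehicle mean was -0.496 in vehicle library 2 and 0.193 to 0.275 in the remaining vehicle libraries. That mean includes vehicle library 2, so these values are not independent and the 1 in 20 need not hold for them.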

How the results depend on the processing

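Over 15 alternatives each, Egr1, Ier2, Ier3, Btg1 and Btg2 kept their direction and stayed past the threshold, and Egr2 kept its direction and stayed short of it. Their log2 fold changes ranged from 1.03 to 1.19 for Egr1, 0.81 to 1.02 for Ier2, 3.35 to 3.53 for Ier3, 0.63 to 0.74 for Btg1, 0.72 to 0.88 for Btg2 and 0.62 to 1.02 for Egr2. Ier5 lost its call with DESeq2 (log2 fold change 0.41) and with both second libraries left out (0.35; this setting was added after the data had been seen), and over single libraries left out it ranged from 0.33 to 0.51; the cause was not tested. The 406 genes lower with IL1B over all genes became 252 to 589 with single libraries left out, the lowest without IL1B library 3, and 676 with both second libraries left out; the 968 higher ones stayed within 1.5 times. The 4 within-library ratios moved by less than 1 SD in 36 recalculations. With single libraries left out, log2 fold changes near 0 ran across it for Btg3 (-0.53 to 0.20, upward without vehicle library 2 and IL1B libraries 1 and 3), Tob2 (-0.14 to 0.04, upward without IL1B library 1 or 3) and Egr4 (-0.26 to 0.25, upward without IL1B library 1). Counts over the lists moved by more than 1.5 times in 41 of 420 recalculations. No paired analysis was possible because the table's IL1B columns do not carry the replicate numbers of the labels. Depth limits Egr2 and Egr3, with 39 and 0 counts over the IL1B libraries and 29 and 2 over the vehicle libraries.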
